A study of Mus musculus with 6 samples.

Results

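Gene expression was compared between mouse 2-cell embryos that had received wild-type Suv39h1 mRNA (Suv39h1wt) and those given its mutant form (Suv39h1mut), gene by gene, with each wild-type library set against the mutant library of the same number. The comparison used the raw read counts of 4 of the 6 libraries, 2 per injected group, and covered all 26982 genes of the gene table, of which 17638 had enough reads to be tested. Zygotes had been microinjected 18 h after phCG with mRNA at 0.6 µg/µl and cultured in KSOM, an embryo culture medium. The 2 libraries of embryos left without injection served only as a reference level. The labels give no strain, no age, no number of embryos per library and no description of the mutation, and do not state that libraries sharing a group were collected separately. The p-values therefore reflect library-to-library spread, which may be technical. Both injected groups share the injection and the mRNA dose, and differ in the form of the mRNA.

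SUV39H1 is a histone methyltransferase that trimethylates lysine 9 of histone H3 (H3K9me3), the mark of constitutive heterochromatin to which HP1 proteins bind. In the mouse the embryonic genome is broadly activated at the 2-cell stage, while transcripts stored in the oocyte are degraded. A brief programme of genes that use promoters of the endogenous retrovirus MERVL is characteristic of that stage.

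No gene passed the test between the groups. In edgeR's quasi-likelihood test with Benjamini-Hochberg adjustment, which included the library number as a block, 0 of 17638 genes (0%) had an adjusted p under 0.05, and the smallest adjusted p was 0.995. At an unadjusted p under 0.05 there were 396 genes with a higher level in Suv39h1wt (2.25% of those tested) and 313 with a lower one (1.77%). With upper-quartile scaling in place of TMM scaling that split was 310 and 388. Without the replicate block it was 223 and 257, with 0 genes at an adjusted p under 0.05. DESeq2 with the block gave no adjusted p for 3420 genes. It called 68 higher genes (0.386%) and 32 lower genes (0.181%), as shares of all 17638. Of these 100, 21 had a mean of at least 10 CPM, the read count scaled to library size. Limma-voom with the block called 0 genes, and at an unadjusted p under 0.05 it counted 522 in the higher and 470 in the lower direction. Leaving out Suv39h1wt replicate 1 gave 133 genes at an adjusted p under 0.05 in edgeR and leaving out Suv39h1mut replicate 2 gave 3, with the lone library of the group assumed to vary like the others, and leaving out any other library gave 0.

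The libraries held 33.5 M to 48.6 M gene counts, and 18463 to 22349 genes had at least 1 count. The mitochondrial ribosomal RNAs took 26.7% and 47.3% of the counts in Suv39h1wt replicates 1 and 2, 28.7% and 37.4% in Suv39h1mut, and 37.0% and 46.8% in non-injected embryos. Each injected library lay closer to the other injected library of its number than to the other library of its group. Over genes of at least 10 CPM the median absolute difference was 0.345 on the log2(CPM + 0.5) scale between the injected libraries numbered 1 and 0.504 between those numbered 2. It was 0.712 between the 2 Suv39h1wt libraries and 0.617 between the 2 Suv39h1mut libraries. What a library number marks is not given in the labels.

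**Figure D1:**
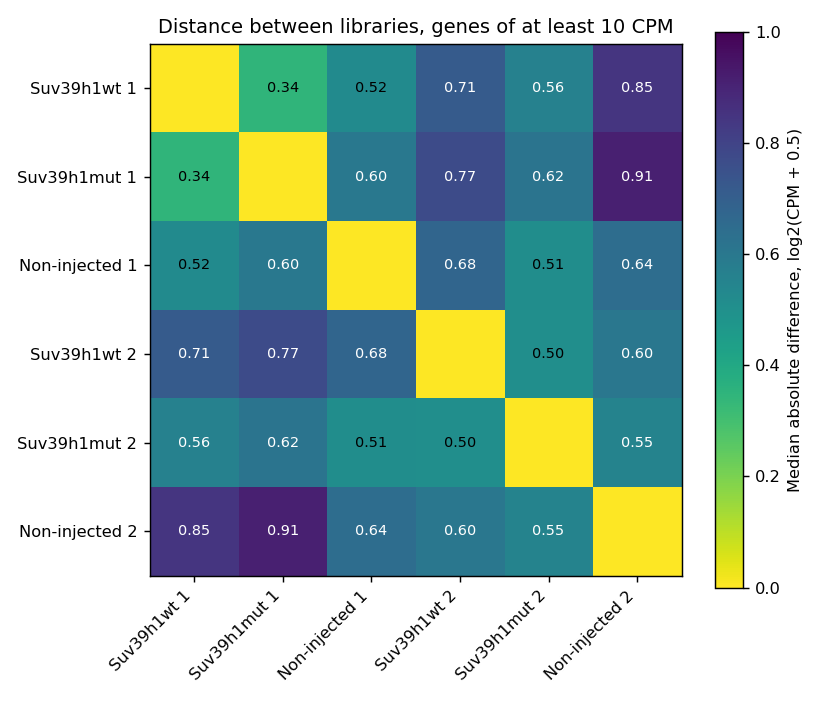
Each cell gives the median absolute difference in log2(CPM + 0.5) between a pair of libraries, over 6701 genes with a mean of at least 10 CPM, with libraries ordered by number and the colour scale from 0 to 1. The pair Suv39h1wt 1 and Suv39h1mut 1 is the closest, at 0.345, and the 2 Suv39h1wt libraries are at 0.712.

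The gene whose mRNA was injected was not separated between the injected groups. Suv39h1 (chromosome X, 7638297 to 7651886, mm9) was at 51.2 and 38.0 CPM in the Suv39h1wt libraries, at 28.0 and 41.6 CPM in the Suv39h1mut libraries, and at 41.3 and 35.0 CPM in the non-injected libraries. The groups overlapped, and the 2 library numbers differed in sign. Its log2 fold change, Suv39h1wt over Suv39h1mut, was 0.35 ± 0.41 (SE), with a 95% interval from -0.57 to 1.28, and it was -0.08 without Suv39h1mut replicate 1. Both injected mRNAs are forms of this gene and may add reads to it, so it does not tell the 2 labels apart. No excess over the non-injected level was seen, with a mean of 39.7 CPM over the injected libraries against 38.2 CPM in the non-injected ones. The part of the injected mRNA in these reads was not tested. Suv39h1 lies across an antisense gene, Gm14820, at a mean of 12.7 CPM, and a strand setting for the counting is not given in the sources used here.

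The difference between the groups was then computed within each library number and set side by side. Of the 17638 genes, 9027 (51.2%) had the same sign in both numbers, and the share was 53.5% over the 6701 genes of at least 10 CPM and 54.3% over the 1198 genes of at least 100 CPM. Across genes, Pearson's r between the 2 differences was 0.0495, 0.0758 and 0.170 for these sets; genes are not independent replicates, and no test was made. The differences were wider in number 2, with an SD across genes of 1.30 on the log2 scale against 0.870 in number 1. A 2-fold difference was present in 3868 genes in number 1, in 6398 in number 2 and in 1819 in both. Of those 1819, 424 were higher in Suv39h1wt both times, 582 were lower both times and 813 had opposite signs. The 95% interval of the fold change lay within 2-fold either way for 905 of the 1198 genes of at least 100 CPM (75.5%), and for 1579 of all genes tested (8.95%).

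**Figure D2:**
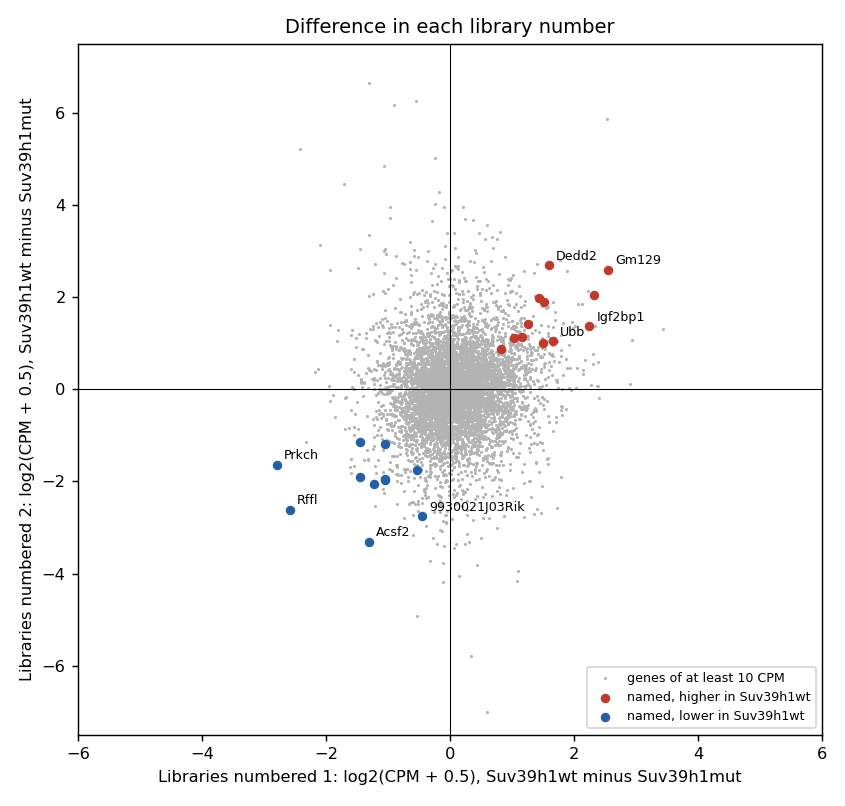
Each grey point is 1 of 6701 genes with a mean of at least 10 CPM, placed by its difference in log2(CPM + 0.5), Suv39h1wt minus Suv39h1mut, in the libraries numbered 1 (horizontal) and 2 (vertical); red and blue points are the 12 higher and 11 lower genes named in the text. The cloud has almost no slant, with r = 0.0758, and is taller than wide, with SDs of 0.928 and 0.584.

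The libraries of the groups did not overlap for 2163 genes that were higher in Suv39h1wt (12.3% of those tested) and for 2668 that were lower (15.1%). A stricter set, with no overlap and a 2-fold difference in both numbers, held 367 higher genes (2.08%) and 530 lower genes (3%). Among genes of at least 10 CPM it held 67 higher genes (1%) and 28 lower genes (0.418%). Among these genes of at least 10 CPM, the 267 with an unadjusted p under 0.05 and a higher level made up 3.98%, and the 84 with a lower level 1.25%. When edgeR was fitted only to genes of at least 10 CPM, these counts were 265 and 137, so the imbalance depends on the fit.

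Among genes of at least 10 CPM, the 12 higher genes with the smallest p included a polyubiquitin gene, an RNA-binding protein gene, a protein kinase gene and a ribosomal protein gene. These genes were chosen by p, same sign in both numbers and no overlap, so their separation is a description and none passed the adjusted test. Ubb (chromosome 11, 62364673 to 62366715, mm9), which encodes a chain of ubiquitin units, was at 161 and 211 CPM in Suv39h1wt, 50.9 and 102 CPM in Suv39h1mut, and 85.8 and 147 CPM in non-injected embryos. Both Suv39h1wt libraries were above all 4 others. The log2 fold change was 1.36 ± 0.28, with an adjusted p of 0.995 in edgeR's quasi-likelihood test, the value that the 23 genes of this kind named here share. Igf2bp1 (chromosome 11, 95818477 to 95867254), an RNA-binding protein that stabilises and localises mRNAs, was at 77.8 and 62.3 CPM in Suv39h1wt, 16.1 and 23.7 CPM in Suv39h1mut, and 35.1 and 49.2 CPM in non-injected embryos. The non-injected libraries lay between the injected groups, with a log2 fold change of 1.85 ± 0.39 for Suv39h1wt over Suv39h1mut.

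Prkcq, protein kinase C theta (chromosome 2, 11093740 to 11222853), was the most abundant of the 12 that encode a protein. It was at 3068 and 5171 CPM in Suv39h1wt, 1507 and 2385 CPM in Suv39h1mut, and 2199 and 1886 CPM in non-injected embryos. The difference was nearly the same in both numbers, 1.03 and 1.12 on the log2(CPM + 0.5) scale, and the fitted log2 fold change was 1.08 ± 0.25. Cdc20, the activator of the anaphase-promoting complex, was at 65.2 and 101 CPM in Suv39h1wt against 22.9 and 49.9 CPM in Suv39h1mut, and at 58.3 and 194 CPM in non-injected embryos. Both non-injected libraries of Cdc20 were above both Suv39h1mut libraries, and they lay on either side of the Suv39h1wt pair. Dedd2, a death-effector-domain protein, was at 10.5 and 53.3 CPM against 3.14 and 7.83 CPM, with 11.6 and 36.6 CPM in non-injected embryos. Ece2, an endothelin-converting enzyme, was at 17.9 and 45.3 CPM against 5.92 and 11.7 CPM, with 22.2 and 48.7 CPM in non-injected embryos. For Dedd2 and Ece2 each Suv39h1mut library was the lowest of its number. Their log2 fold changes were 2.26 ± 0.52 and 1.77 ± 0.46.

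Rpl41 (chromosome 10, 127985170 to 127986361), a protein of the large ribosomal subunit, was at 270 and 556 CPM in Suv39h1wt, 121 and 250 CPM in Suv39h1mut, and 516 and 555 CPM in non-injected embryos. The Suv39h1mut libraries were the lowest of each number, and the log2 fold change was 1.15 ± 0.28. The remaining members were Gm9000, Gm129 and 3 long intergenic noncoding RNA genes, F630040L22Rik, RP23-425D13.4 and 0610005C13Rik, with log2 fold changes from 0.85 for RP23-425D13.4 to 2.79 for Gm129. Gm9000, F630040L22Rik, Gm129, Ece2, 0610005C13Rik and Cdc20 share positions with another annotated gene, so part of their reads may belong to it. F630040L22Rik overlaps Bsn, which had a log2 fold change of 1.84 at a mean of 2.28 CPM. Of the 12 genes, the mean of the non-injected libraries lay between the injected groups for 8, above both for 3 and below both for 1, and it was nearer to Suv39h1wt for 8.

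The lower genes of at least 10 CPM, of which 11 are reported, included genes for a ubiquitin ligase, a cullin, a transcription termination factor and a histone chaperone subunit. Rffl (chromosome 11, 82615951 to 82684712), a RING-finger ubiquitin ligase, was at 2.48 and 3.50 CPM in Suv39h1wt, 17.4 and 24.0 CPM in Suv39h1mut, and 16.9 and 40.6 CPM in non-injected embryos. Both Suv39h1wt libraries were far below the other 4. The log2 fold change was -2.80 ± 0.55, and it ranged from -2.97 to -2.57 without 1 library. Rffl overlaps Lig3, a DNA ligase gene with a log2 fold change of -0.86. Pcf11, a factor of mRNA cleavage and transcription termination, was at 24.2 and 10.2 CPM against 50.8 and 40.8 CPM, with 34.5 and 27.6 CPM in non-injected embryos. Cul4a, the scaffold of a ubiquitin ligase, was at 16.9 and 5.39 CPM against 35.5 and 22.4 CPM, with 42.2 and 13.0 CPM in non-injected embryos. For both genes each Suv39h1wt library was the lowest of its number, with log2 fold changes of -1.51 ± 0.45 and -1.59 ± 0.51.

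Supt16h, a subunit of the histone chaperone FACT, was at 27.4 and 15.7 CPM in Suv39h1wt, 57.7 and 36.5 CPM in Suv39h1mut, and 52.2 and 35.9 CPM in non-injected embryos. The non-injected and Suv39h1mut levels of Supt16h nearly coincided within each number, and the log2 fold change was -1.14 ± 0.39. Prkch, protein kinase C eta, was at 1.48 and 7.23 CPM against 13.3 and 23.5 CPM, with 10.7 and 12.1 CPM in non-injected embryos. Its log2 fold change of -2.31 ± 0.72 was opposite in sign to that of Prkcq, of the same kinase family. The other members were Tbx4, a T-box transcription factor, Nid2, a basement membrane protein, Wdr62, a spindle pole protein, Acsf2, an acyl-CoA synthetase, Wdr44 and 9930021J03Rik. Their log2 fold changes ran from -1.21 for Wdr44 to -2.33 for Acsf2. Supt16h, Nid2, Wdr62 and Acsf2 share positions with another annotated gene. The difference of 9930021J03Rik was uneven, -0.46 in number 1 and -2.76 in number 2. Other lower genes moved more than Rffl without 1 library. The log2 fold change of 9930021J03Rik was -0.39, that of Wdr44 -0.44 and that of Cul4a -1.03 without Suv39h1mut replicate 2. Without Suv39h1wt replicate 2 that of Acsf2 was -1.33, and without Suv39h1wt replicate 1 that of Prkch was -1.51. The mean of the non-injected libraries lay between the injected groups for 7 of the 11 lower genes, above both for 4, and nearer to Suv39h1mut for 10.

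**Figure D3:**
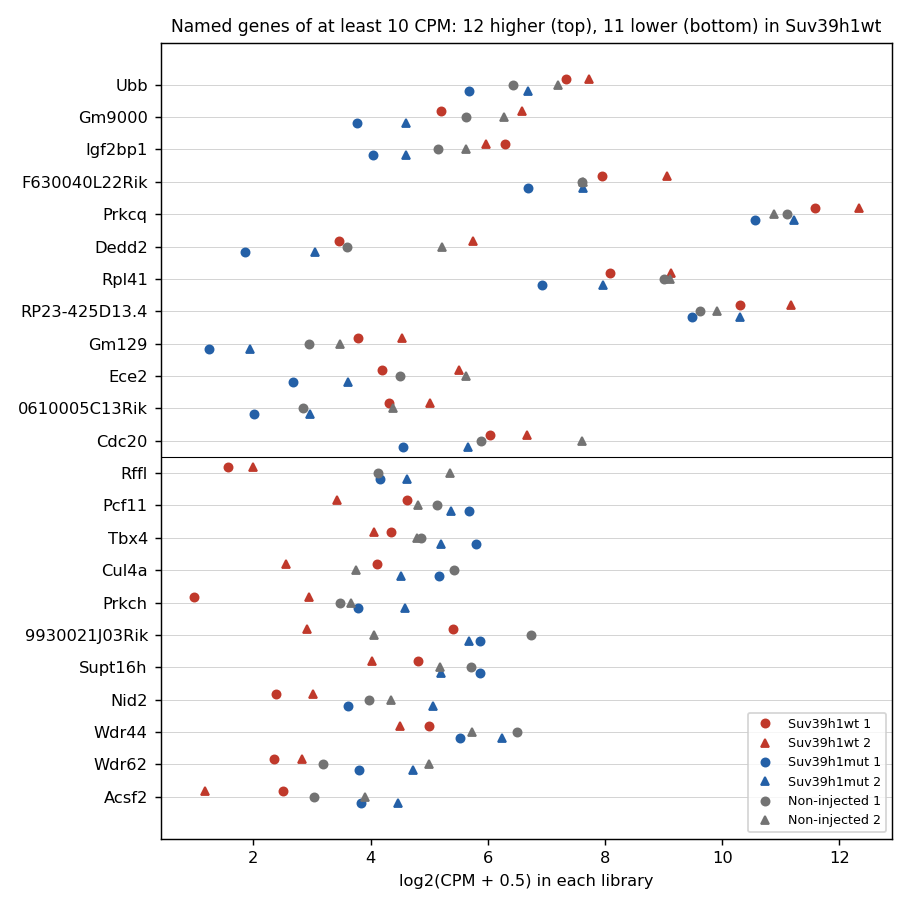
Each row is a gene and each point the log2(CPM + 0.5) of 1 library; red is Suv39h1wt, blue Suv39h1mut and grey non-injected, with circles for replicate 1 and triangles for replicate 2. The 12 genes above the line have both red points to the right of both blue points, the 11 below it the reverse, and the mean of the grey points lies between those of the injected groups for 8 genes of the upper set and 7 of the lower.

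The promoters of 4 of these genes, chosen after their values were seen, are shown to set the starts of 3 higher genes, Ubb, Prkcq and Rpl41, beside that of the lower gene Rffl; 29 of the 49 named genes matched an entry. Each is 300 bases of the gene's own strand, from 250 before to 50 after the start that RefSeq gives in the GRCm38.p6 build, a later build than that of the counts. Capitals mark 3 motifs on either strand, which do not overlap one another: CCAAT, which the factor NF-Y binds, then GGGCGG, known as the GC box, and TATAAA, a form of the TATA box.
Ubb, chr11:62550921-62551220, plus strand: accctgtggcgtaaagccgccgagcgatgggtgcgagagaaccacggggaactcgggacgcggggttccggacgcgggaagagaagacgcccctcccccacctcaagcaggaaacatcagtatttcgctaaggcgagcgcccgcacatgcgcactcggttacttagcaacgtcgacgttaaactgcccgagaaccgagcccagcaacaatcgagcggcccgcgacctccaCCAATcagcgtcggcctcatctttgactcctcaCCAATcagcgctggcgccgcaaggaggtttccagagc
Prkcq, chr2:11172132-11172431, plus strand: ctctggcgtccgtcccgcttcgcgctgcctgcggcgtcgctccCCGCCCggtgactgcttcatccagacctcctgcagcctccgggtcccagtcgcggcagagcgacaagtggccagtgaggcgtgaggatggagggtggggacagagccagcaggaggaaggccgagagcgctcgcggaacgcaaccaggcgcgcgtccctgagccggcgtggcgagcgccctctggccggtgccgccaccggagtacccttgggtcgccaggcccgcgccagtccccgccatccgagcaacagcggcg
Rpl41, chr10:128549119-128549418, minus strand: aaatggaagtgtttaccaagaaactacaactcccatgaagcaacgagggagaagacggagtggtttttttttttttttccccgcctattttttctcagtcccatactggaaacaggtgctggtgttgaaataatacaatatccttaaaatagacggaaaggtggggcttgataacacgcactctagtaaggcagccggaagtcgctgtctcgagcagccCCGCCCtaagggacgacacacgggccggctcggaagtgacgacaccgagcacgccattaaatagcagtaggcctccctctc
Rffl, chr11:82871161-82871460, minus strand: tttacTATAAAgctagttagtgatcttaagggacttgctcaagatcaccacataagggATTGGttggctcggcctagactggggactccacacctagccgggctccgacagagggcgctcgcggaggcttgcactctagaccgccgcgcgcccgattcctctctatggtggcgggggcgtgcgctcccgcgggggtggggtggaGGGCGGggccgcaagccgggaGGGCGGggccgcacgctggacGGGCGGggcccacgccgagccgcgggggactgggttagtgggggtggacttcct
The Ubb promoter holds 2 CCAAT motifs, Prkcq and Rpl41 hold 1 GGGCGG motif each, and Rffl holds 1 match to CCAAT, 3 matches to GGGCGG and 1 match to TATAAA. Of all 32851 promoters of this length in the table, 37.4% hold CCAAT, 35.7% hold GGGCGG and 13.6% hold TATAAA, on either strand. No motif is held by all 4 promoters. Their GC content was 62.3%, 73.0%, 49.3% and 67.3%, against a median of 52.7%.

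Genes at 1 to 10 CPM had larger fold changes, which often rested on 1 library. Rbfa, which binds the mitochondrial ribosome, was at 7.24 and 30.1 CPM in Suv39h1wt, 0.230 and 1.29 CPM in Suv39h1mut, and 3.93 and 4.16 CPM in non-injected embryos. It was high in both Suv39h1wt libraries, with a log2 fold change of 4.68 ± 0.87. Csf2rb, a receptor subunit for blood cell cytokines, was at 0.537 and 21.6 CPM against 0.0383 and 0.0635 CPM, and at 0.0765 and 0.245 CPM in non-injected embryos. Most of its signal came from Suv39h1wt replicate 2. Ttc18, Ttc24, Mgat4b and the pseudogene Gm15190 were likewise highest in Suv39h1wt replicate 2, at 16.7, 12.1, 24.5 and 7.20 CPM, with at most 1.55 CPM in Suv39h1wt replicate 1, the value of Mgat4b.

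Of the lower genes at 1 to 10 CPM, Men1, which encodes the tumour suppressor menin, was at 0.749 and 0.603 CPM in Suv39h1wt, 6.57 and 13.7 CPM in Suv39h1mut, and 8.27 and 2.05 CPM in non-injected embryos. The 2 Suv39h1wt libraries were the lowest of the 6, and the log2 fold change was -3.99 ± 1.04. Cdhr1, a photoreceptor cadherin gene, was without a count in Suv39h1wt and was at 1.36 and 9.58 CPM in Suv39h1mut. Against a floor of 3 counts per library its mean was at least 74.0-fold lower in Suv39h1wt, as a ratio of group means. On the same measure Gm16282 was at least 46.6-fold lower and Gm17638 at least 107-fold lower, but Gm17638 was at 0.0383 CPM in Suv39h1mut replicate 1 and 15.8 CPM in replicate 2. Fam53b was at 1.07 and 3.25 CPM against 6.93 and 12.7 CPM. The pseudogene Fth-ps2 was at 0.0768 and 0 CPM against 4.46 and 7.51 CPM. Gm15190, Gm16282, Fam53b, Fth-ps2 and Gm17638 overlap another gene, and reads of a pseudogene can belong to its parent gene.

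Several of the most abundant genes outside the mitochondrial genome differed more between library numbers than between the injected groups. Zbed3, a zinc finger gene, was at 13820 and 3910 CPM in Suv39h1wt, 16590 and 5487 CPM in Suv39h1mut, and 4507 and 3040 CPM in non-injected embryos. It was highest in the injected libraries numbered 1, and the log2 fold change between the injected groups was -0.36 ± 0.27. Lars2, the mitochondrial leucyl-tRNA synthetase, was at 2341 and 13950 CPM against 2195 and 8601 CPM, with 6359 and 10601 CPM in non-injected embryos. The small RNA gene mmu-mir-689-2 was at 249 and 10657 CPM against 533 and 7490 CPM, with 568 and 11729 CPM in non-injected embryos. All 3 of its libraries numbered 1 were low and all 3 numbered 2 were high. Its log2 fold change of -0.27 ± 0.31 was 0.44 without the replicate block. Spin1, a reader of histone methylation, was at 4336 and 3521 CPM against 4489 and 4192 CPM, and Dhtkd1, a mitochondrial dehydrogenase, at 1620 and 2661 CPM against 1521 and 2457 CPM. Their log2 fold changes were -0.15 ± 0.19 and 0.10 ± 0.19, and that of Ccdc6 was 0.09 ± 0.20. The antisense gene Gm16344, at 5861 and 9247 CPM against 3929 and 5956 CPM, had 0.61 ± 0.22, the oocyte gene Omt2b 0.45 ± 0.23 and Gm10925 0.34 ± 0.44. Zbed3, Gm16344, mmu-mir-689-2 and Dhtkd1 share positions with other genes. The annotated length of mmu-mir-689-2 is 0.057 kb. In every group Lars2, mmu-mir-689-2 and Gm10925 were higher in the library numbered 2, as was the share of mitochondrial ribosomal RNA. The origin of the reads of these genes was not tested.

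Genes were also grouped by function, and each group was described by its counts and its median beside those of all genes. Over all 17638 genes tested the median log2 fold change was -0.03 and 48.2% of genes were positive, and no member of any group passed the adjusted test. Cytosolic ribosomal protein genes had the most one-sided counts. Of 85 members, 82 had a positive log2 fold change, 31 (36.5%) had an unadjusted p under 0.05 and a higher level, and 20 (23.5%) were higher without overlap. All genes gave 2.25% and 12.3% for these 2 shares, and genes of at least 10 CPM 3.98% and 12.4%. A further member, Rpl15, was lower without overlap. The median log2 fold change was 0.58, with median differences of 0.79 in number 1 and 0.58 in number 2, and 68 of 85 (80%) were positive in both numbers, against 24.2% of all genes. The median ranged from 0.53 to 0.86 without 1 library. The 3 members with a negative value, named after their values were seen, were Rpl15, Rpl21 and Rpl10, at -0.89, -0.06 and -0.04.

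Rps29, of the small ribosomal subunit, was at 112 and 296 CPM in Suv39h1wt, 50.1 and 115 CPM in Suv39h1mut, and 141 and 289 CPM in non-injected embryos. Within each number the Suv39h1mut library was the lowest, although the injected groups overlapped across numbers, and the log2 fold change was 1.27 ± 0.25. Summed over the 85 genes, the level was 4791 and 9238 CPM in Suv39h1wt, 2746 and 6062 CPM in Suv39h1mut, and 6269 and 10710 CPM in non-injected embryos. The order was thus the same in both numbers, with non-injected highest and Suv39h1mut lowest. The mean of the non-injected libraries was above both injected groups for 61 of the 85 genes (71.8%), against 36.6% of all genes. Ribosomal protein genes are short, with a median length of 0.658 kb in the lengths that the authors' deposited values imply. When all genes were divided by length into 5 classes of equal size, other genes of the shortest class with at least 10 CPM had a median log2 fold change of 0.14 (61.1% of 1051 positive), and those of the longest class -0.07 (44% of 1685). The part of gene length in the result was not tested further.

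**Figure D4:**
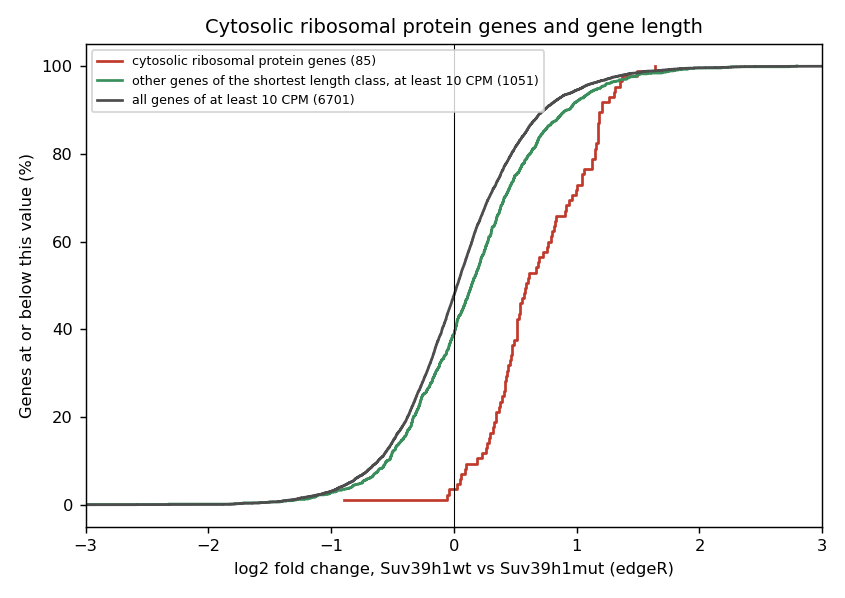
Each line gives the percentage of genes (vertical) at or below a log2 fold change, Suv39h1wt over Suv39h1mut (horizontal), for 85 cytosolic ribosomal protein genes in red, 1051 other genes of the shortest length class with at least 10 CPM in green, and all 6701 genes of at least 10 CPM in grey. The red line crosses 0 with 3 genes to its left and its median is 0.58, against 0.14 for the green and 0.03 for the grey line.

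Genes of the MERVL-linked 2-cell programme had a median log2 fold change of 0.41, with 31 of 43 positive. At an unadjusted p under 0.05 there were 9, all higher (20.9%), against 2.25% of all genes and 3.98% of those of at least 10 CPM. The median was 0.24 without Suv39h1wt replicate 2, 0.27 without Suv39h1mut replicate 2 and 0.39 to 0.53 without any other single library. By library number, 24 of 43 were positive in number 1 and 33 in number 2, with medians of 0.15 and 0.34. Gm6763 was at 133 and 157 CPM in Suv39h1wt, 67.3 and 35.2 CPM in Suv39h1mut, and 15.2 and 23.8 CPM in non-injected embryos. Zscan4d, a member of the zinc finger family that marks the stage, was at 114 and 61.2 CPM against 65.1 and 27.9 CPM, with 20.9 and 6.52 CPM in non-injected embryos. In both genes the order was Suv39h1wt, Suv39h1mut and non-injected in each number, with log2 fold changes of 1.50 ± 0.40 and 0.98 ± 0.37. Gm2056, Usp17l5, Gm5662, Gm8300, Tmem92, Cml2 and B020004J07Rik made up the rest of the 9, at 0.61 to 1.74. The non-injected mean was below both injected groups for 32 of the 43 genes (74.4%), against 38.1% of all genes. Several members belong to families of near-identical copies, whose reads cannot be assigned with certainty.

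Summed markers of the 2-cell embryo and oocyte were at 1180 and 1297 CPM in Suv39h1wt, 1066 and 731 CPM in Suv39h1mut, and 667 and 706 CPM in non-injected embryos. In the injected libraries Zfp352 was the largest part, at 351 and 593 CPM in Suv39h1wt and 362 and 351 CPM in Suv39h1mut. Gm6763, Zscan4d and Gdf9 were higher in Suv39h1wt in both numbers. Eif1a was lower in both, at 23.1 and 17.1 CPM against 27.5 and 21.1 CPM, and the other markers did not keep a direction across numbers. Cumulus and granulosa markers summed to 6.60 to 13.6 CPM, with the 2 Suv39h1wt libraries the highest, at 13.6 and 10.0 CPM, and non-injected replicate 2 next at 9.30 CPM. The 2 Suv39h1wt sums rested on different genes. Foxl2 alone held 6.75 CPM in replicate 2 and was at 0 in replicate 1, where Has2 and Cyp19a1 were at 4.09 and 3.91 CPM. Sperm markers summed to 0.581 to 5.00 CPM and blood markers to 1.63 to 12.7 CPM. Markers of fibroblasts and epithelium summed to 57.2 to 156 CPM, of which Epcam alone held 54.5 to 150 CPM. Of cumulus and granulosa markers 10 of 11 have a row in the gene table, and of sperm markers 6 of 9. Of blood markers 7 of 9 have one, and of fibroblast and epithelium markers 6 of 8. None of these was at 0 in all libraries, and whether the markers without a row had reads is not known. The part of other cells in the results was not tested, and in whole embryos fewer cells and less RNA per cell cannot be told apart.

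The machinery of H3K9 methylation showed no common direction. Of 10 H3K9 methyltransferase genes tested 6 were positive, of 11 H3K9 demethylase genes 7, and of 20 genes for HP1 proteins and H3K9me3 co-repressors 8, with medians of 0.11, 0.07 and -0.16. Suv39h2, the paralogue of Suv39h1, was at 137 and 66.8 CPM in Suv39h1wt and 140 and 62.4 CPM in Suv39h1mut, with 85.0 and 42.3 CPM in non-injected embryos. Its levels nearly coincided within each number, with a log2 fold change of 0.03 ± 0.29 that was -0.04 with upper-quartile scaling. Kdm3b, a demethylase of H3K9, was at 34.6 and 57.2 CPM against 23.5 and 16.7 CPM, and Setdb2, a methyltransferase, at 29.0 and 20.2 CPM against 52.2 and 32.1 CPM. Their injected groups did not overlap, and the log2 fold changes were 1.17 ± 0.43 and -0.76 ± 0.42. Cbx3, the HP1 gamma gene, had 0.92 ± 0.49 and Atrx, a chromatin remodeller of heterochromatin, -0.18 ± 0.22. Polycomb genes split 15 to 15, with a median of 0.01, and Phc2, Cbx2 and Bmi1 were at 0.65, 0.67 and 0.16. DNA methylation genes had a median of 0.02, with Dnmt3a at -0.54 and Dppa3 at 0.05, and histone chaperones 0.01, with Nap1l4 at 0.81. The histone variant gene H2afv was at 0.82.

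Mitochondrially encoded genes had a median log2 fold change of 0.41, with 29 of 32 positive, but the 2 numbers differed. The median difference was -0.01 in number 1, where 16 were positive, and 0.67 in number 2, where all 32 were. The share of mitochondrial ribosomal RNA moved with it, being higher in Suv39h1wt than in Suv39h1mut in number 2 and lower in number 1. The part of the amplified mitochondrial RNA in the scaling was not tested beyond leaving these genes out, which gave 391 higher and 314 lower genes at an unadjusted p under 0.05. Nuclear-encoded genes of oxidative phosphorylation had a median of 0.30 (50 of 83 positive) and mitochondrial ribosomal proteins 0.08 (37 of 72 positive). Ndufb10, a subunit of complex I, was at 1.17 and 2.02 CPM in Suv39h1wt and 4.14 and 12.5 CPM in Suv39h1mut, and Cox6a1, of complex IV, at 40.0 and 114 CPM against 32.7 and 40.8 CPM. These 2 genes had opposite directions, with log2 fold changes of -2.28 and 0.89.

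Proteasome subunits differed in direction between the numbers, with medians of 0.33 and -0.17. Of 47 genes, 12 were higher without overlap (25.5%, against 12.3% of all genes) and 3 lower (6.38%, against 15.1%). Psmd4 and Psmb5 were among the 12. Psmd4 was at 19.6 and 54.9 CPM in Suv39h1wt and 12.6 and 10.3 CPM in Suv39h1mut, and Psmb5 at 10.5 and 32.5 CPM against 4.98 and 5.35 CPM. Spliceosome genes likewise had medians of 0.30 and -0.13, with Snrpc, of the U1 particle, at 1.09 ± 0.31. Ribosome biogenesis genes had a median log2 fold change of 0.13 (42 of 61 positive), translation factors -0.04 and aminoacyl-tRNA synthetases -0.08. Nhp2, of the H/ACA ribonucleoproteins, had a positive difference in both numbers, and the log2 fold changes of Eif3i and Eif5b were 0.61 and -0.52. Genes of nonsense-mediated decay had a median of 0.28. Dhx34, an RNA helicase of that pathway, was at 2.55 and 7.99 CPM in Suv39h1wt and 0.134 and 0.0212 CPM in Suv39h1mut. The Suv39h1mut values rest on only 7 and 1 reads. The log2 fold change was 5.65 ± 1.34, and 4.21 to 8.4 without 1 library. Non-injected embryos had 2.70 and 9.46 CPM of Dhx34, close to Suv39h1wt, and Rbm8a of the exon junction complex was at 0.69 ± 0.29.

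Maternal and embryonic regulators were spread around 0. Maternal oocyte transcripts had a median of -0.05 (23 of 49 positive) and replication licensing genes -0.16 (19 of 39). Early genome activation transcription factors had -0.05 (11 of 26), but 0.26 in number 1 and -0.22 in number 2. Cyclins and cyclin-dependent kinases had a fitted median of -0.06 (18 of 38), although the medians by number were 0.09 and 0.08. Centromere and kinetochore genes had -0.05 (18 of 39), with 0.06 and -0.12 by number. Btg4, which promotes removal of maternal mRNA, was at 1448 and 839 CPM in Suv39h1wt and 1198 and 884 CPM in Suv39h1mut, with 569 and 516 CPM in non-injected embryos. It was higher in every injected library than in the non-injected ones, with a log2 fold change between injected groups of 0.11 ± 0.22. Zfp36l2, which destabilises mRNAs with AU-rich elements, was at 58.1 and 36.0 CPM against 19.2 and 15.7 CPM, with 15.7 and 12.4 CPM in non-injected embryos. Both Suv39h1wt libraries stood above the other 4, and the log2 fold change was 1.40 ± 0.45. Tead4, a transcription factor of the trophectoderm lineage, was at 3.22 and 4.85 CPM against 5.17 and 28.6 CPM, and Rarg, a retinoic acid receptor, at 1.90 and 2.08 CPM against 3.31 and 13.8 CPM. Non-injected embryos had 21.4 and 31.8 CPM of Tead4 and 16.2 and 18.6 CPM of Rarg. In both genes Suv39h1mut replicate 2 held most of the difference between the injected groups. It was also the injected library nearest to the non-injected levels, with the other injected libraries below them. Cdca8, of the chromosomal passenger complex, was at 0.82 ± 0.26, Ccne1 at 0.69 ± 0.27 and Mcm7 at 0.67 ± 0.35.

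Stress genes had small medians that moved with the libraries used. Heat shock proteins had 0.23 (16 of 26 positive), which was 0.10 without Suv39h1wt replicate 1. Integrated and oxidative stress genes had 0.24 (26 of 38), with 0.29 in number 1 and -0.00 in number 2, and 0.03 without Suv39h1mut replicate 1. Genes that sense foreign RNA or respond to interferon had 0.31 (17 of 25), and 0.17 without Suv39h1wt replicate 2. Hspb1, a small heat shock protein, was at 30.3 and 43.5 CPM in Suv39h1wt, 7.91 and 27.4 CPM in Suv39h1mut, and 17.7 and 30.2 CPM in non-injected embryos. Ddit3, a transcription factor of the stress response, was at 5.84 and 10.1 CPM against 1.63 and 1.06 CPM, with 7.65 and 2.82 CPM in non-injected embryos. Neither gene overlapped between the injected groups, and the log2 fold changes were 1.27 ± 0.49 and 2.66 ± 1.02. Imprinted genes had a median of 0.46 over 28 genes, of which 15 were positive, and Peg3 was at 44.2 and 54.8 CPM against 21.5 and 15.4 CPM. That median was -0.21 over the members of at least 10 CPM. Genes named Zfp for zinc finger proteins had a median of -0.17, with 133 of 336 positive. Their non-injected mean was above both injected groups for 106 (31.5%, against 36.6% of all genes) and below both for 148 (44.0%, against 38.1%).

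**Figure D5:**
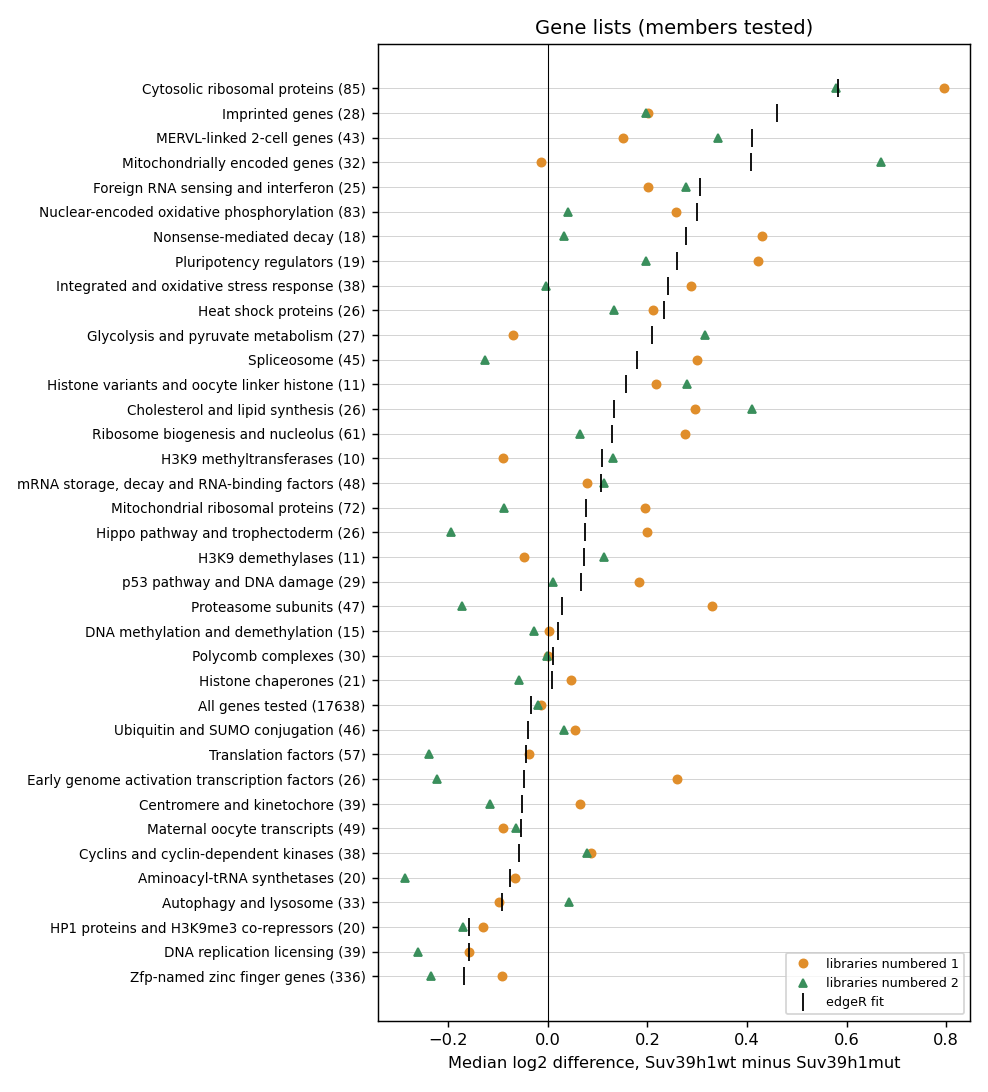
Each row is a gene list with the number of members tested; the median difference, Suv39h1wt minus Suv39h1mut, is shown for libraries numbered 1 (circles), for libraries numbered 2 (triangles) and for the edgeR fit (bars), on a log2 scale, and marker lists of other cells, canonical histones, olfactory receptors and small lists are not drawn. Cytosolic ribosomal proteins stand apart in number 1 at 0.79, while in number 2 their 0.58 is below the 0.67 of mitochondrially encoded genes. Proteasome and spliceosome lists have circles and triangles on opposite sides of 0.

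Chromosome medians were close to the median of all genes. Medians of the log2 fold change by chromosome ran from -0.12 on X to 0.03 on chromosome 12, apart from the mitochondrial genome. For the 939 genes within 10 Mb of the start of an autosome, the end where the mouse centromere lies, the median was -0.01, against -0.03 for the 15922 genes farther away. By length the medians were 0.09, 0.01, -0.04, -0.08 and -0.10 from the shortest to the longest of the 5 classes. By level, genes under 1 CPM had a median of -0.44 and a median SE of 2.25, and genes of at least 100 CPM -0.01 and 0.275.

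The non-injected libraries gave a reference for the 396 higher and 313 lower genes. Their mean lay between the injected groups for 57.1% of the higher genes, beyond Suv39h1wt for 28.3% and beyond Suv39h1mut for 14.6%, and it was nearer to Suv39h1mut for 44.2%. For the lower genes it lay between for 62.9%, beyond Suv39h1mut for 30% and beyond Suv39h1wt for 7.03%, and was nearer to Suv39h1mut for 56.9%. A gene chosen for a high wild-type and a low mutant value tends to have a value of another group between them, so these shares are descriptions.

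The authors' deposited table gives an adjusted p for 14950 genes, of which 58 are under 0.05, 39 higher (0.261%) and 19 lower (0.127%) in Suv39h1wt; its test is not given in the sources used here. Of these 58, 55 were tested here, and all 55 had the same sign, 53 had an unadjusted p under 0.05, 50 were among the 100 DESeq2 calls and 0 passed edgeR's adjusted test. These values come from the same reads and are not independent. In 24 of the 55, 1 library held over 80% of the CPM summed over the 4 injected libraries, and 13 had a mean of at least 10 CPM. By the smallest adjusted p in the authors' deposited table the leading genes were Rbfa, Ttc18, Csf2rb, Gm10390 and Mgat4b among the higher, and Rffl, 1110020A21Rik, 4930481A15Rik, Cdhr1 and Men1 among the lower. Rffl had a log2 fold change of -2.43 in the authors' deposited table, with an adjusted p of 0.000347. Gm10390 was at 3.15 and 37.2 CPM in Suv39h1wt and 0.134 and 0.148 CPM in Suv39h1mut, but 13.2 CPM in non-injected replicate 2. The noncoding RNA 1110020A21Rik was at 0.441 and 0.271 CPM against 11.4 and 4.95 CPM, and 4930481A15Rik at 0.0384 and 0 CPM against 4.08 and 5.10 CPM. In non-injected embryos 1110020A21Rik was at 0.638 and 0.429 CPM and 4930481A15Rik had 0 counts, so that Suv39h1mut was the group that stood apart for this pair. Gm10390 overlaps Rbm19, 1110020A21Rik overlaps Ppm1b, at a mean of 219 CPM, and 4930481A15Rik overlaps Drap1.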

How the data were processed

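RNA-seq libraries of mouse 2-cell embryos were grouped from the labels into Suv39h1wt, Suv39h1mut and non-injected, 2 libraries each. Per the submitters' processing notes, the tools were CASAVA 1.8.2, TopHat2 2.0.14, Bowtie and HTSeq 0.6.1, and the build was mm9; the amplification primers were random and poly-T, per the labels' protocols; the annotation release and strand setting are not given in the sources used here. Per the file headers, the deposited table holds raw read counts. The signal values deposited by the authors, normalized counts with and without division by length, gave the length of each gene. The authors also deposited log2 fold changes and adjusted p-values of their own, which serve here as description.

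Counts were tested in R 4.3.3 with edgeR 4.0.16 (quasi-likelihood F test, robust option, fitted to all 6 libraries, group and library number as factors, TMM scaling, filterByExpr with a minimum count of 10, 2 residual degrees of freedom, threshold 0.05 after Benjamini-Hochberg adjustment), with DESeq2 1.42.0 and limma-voom (limma 3.58.1) as alternatives and the data.table package, version 1.17.8. CPM are TMM-scaled; differences within a number use log2(CPM + 0.5). The scripts were tested on simulated data. Total counts were 33.5 M to 48.6 M. For genes with many reads, counting error is small beside the biological coefficient of variation of 0.774 (0.862 without the block), so the spread between libraries limits the precision. For genes with few reads, such as Csf2rb with 2 and 3 reads in the Suv39h1mut libraries, counting error is not small.

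The same numbers, 1 and 2, occur in all groups. The deviations from group means of libraries sharing a number correlated across genes at 0.269 (Suv39h1wt and Suv39h1mut), 0.214 and 0.233 (each with non-injected), and at 0.470 to 0.513 over 6701 genes of at least 10 CPM, and the fit therefore pairs libraries by number; genes are not independent, so this does not show that numbers mark true pairs.

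Members, gene lists, tests and alternatives were chosen with earlier results of these data known. Named genes are Suv39h1; the 12 per direction with the smallest p, a mean of at least 10 CPM, the same sign in both numbers and no overlap; 6 per direction at 1 to 10 CPM by the same conditions; the 10 most abundant genes not encoded in mitochondria; from each list the 2 of smallest p and the most abundant, printed where space allowed; and the 5 per direction with the smallest adjusted p of the authors. Gm2056, Zscan4d and the other MERVL-linked genes of unadjusted p under 0.05 were named as a complete set. Some genes picked by these rules are not reported here. Sequences are from RefSeq. Repeat families were not analysed here.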

Additional observations from a re-analysis of the deposited data

How the results depend on the processing

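The count of genes past the adjusted threshold was 0 under every edgeR and limma-voom alternative with all libraries, 100 with DESeq2, and 0 to 133 without 1 library. Higher genes at an unadjusted p under 0.05 numbered 223 with no replicate block, 823 with DESeq2 and 250 to 961 without 1 library. Lower genes numbered 137 over genes of at least 10 CPM, 470 with limma-voom, 777 with DESeq2 and 178 to 917 without 1 library. The share of genes with the same sign in both numbers was 52.7%, 53.5% and 54.3% at minimum levels of 1, 10 and 100 CPM. Genes that do not overlap numbered 1903 higher and 2894 lower with upper-quartile scaling, which moved the median of all genes by -0.07. Of 96 named genes, 86 kept their sign under every alternative run. Many of the 96 were chosen by small p, and some also by the same sign in both numbers and no overlap. A turn of sign is unlikely in genes chosen that way, so this count is a description and does not hold for all genes. Log2 fold changes that turned were mmu-mir-689-2 (0.44 with no replicate block, 0.33 with limma-voom, -0.96 to 0.41 without 1 library), Suv39h2 (-0.04 with upper-quartile scaling, -0.01 to 0.11 without 1 library) and Dppa3 (-0.02 with upper-quartile scaling, -0.23 to 0.35 without 1 library). Others turned only without 1 library: Suv39h1 (-0.08 to 0.86), Lars2 (-0.24 to 1.01), Spin1 (-0.28 to 0.00), Ccdc6 (-0.03 to 0.26), Gm10925 (-0.27 to 1.27), Atrx (-0.31 to 0.00) and Btg4 (-0.11 to 0.36). The cause was not tested. In edgeR the count of calls at an adjusted p under 0.05 was 0 with and without the block; DESeq2 and limma-voom were run only with it.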
